A study of Mus musculus with 28 samples.

Results

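The day 6 cells of a mouse reprogramming culture that carried neither the surface protein Thy1 nor the carbohydrate antigen SSEA1, called double-negative here, were compared with the day 6 cells that carried SSEA1 and lacked Thy1. The arrays were taken by their labelled day and surface phenotype, 2 double-negative and 2 SSEA1+ arrays of 28 in the series. The series followed fibroblasts with an inducible reprogramming cassette over 12 days, with sorted fractions on days 3, 6, 9 and 12, the starting fibroblasts and finished induced pluripotent stem (iPS) cells. All cells of both groups were labelled strain C57BL6/129 and GFP-negative, and had been sorted by flow cytometry with antibodies against Thy1.2 and SSEA-1 after 6 days of induction. They came from fibroblast cultures of E13.5 embryos that carried the OKSM cassette, which encodes the factors Oct4 (Pou5f1), Klf4, Sox2 and Myc, and a Rosa26-M2rtTA allele, and both grew in embryonic stem cell medium with LIF and doxycycline, the drug that switches the cassette on. The labels allow either 1 or 2 copies of both alleles and do not say which an array had. Each group had an array named M2 and an array named M3. Nothing in the labels says that these came from separate embryos or cultures, so p-values measure the spread between arrays, which may be technical, and the number of arrays limits the precision.

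Fibroblasts driven by these factors first lose surface Thy1, then a minority gains SSEA1, and a part of the SSEA1+ cells later switches on the endogenous pluripotency genes. Along this path cells are known to leave the mesenchymal state, gain epithelial junctions and divide faster. The double-negative fraction carried neither marker when sorted. The contrast asks how far its transcripts differ from those of the SSEA1+ cells of the same day.

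All values are log2 signals per gene, 1 probe set each, where a difference of 1 is 2-fold, and differences are double-negative minus SSEA1+. A gene was called when its limma p-value, adjusted by the Benjamini-Hochberg method over 11807 genes, was under 0.05 and the difference at least 2-fold. The 4 arrays resembled each other in their medians (6.938 to 6.964) and in the 3′ to 5′ signal differences of Gapdh (0.828 to 0.895) and Actb (0.732 to 0.803), which grow with RNA degradation. The 18S ribosomal RNA signal was 8.178 and 7.616 on the double-negative M2 and M3 arrays, against 7.563 and 7.233 on the SSEA1+ M2 and M3 arrays, and its part in the results below was not tested. In cells sorted in bulk, fewer cells of a type and less RNA per cell cannot be told apart.

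The sorting markers were read first. Fut9, the fucosyltransferase that makes the SSEA1 epitope, gave the largest difference of all 125 called genes. It stood at 3.54 and 3.72 on the double-negative arrays and at 6.20 and 5.77 on the SSEA1+ arrays, and the groups lay far apart. The log2 difference was −2.36 (SE 0.23, limma adjusted p = 0.000338). No fold is given, because the double-negative signals lay below the 10th percentile of genes on their arrays and may be background. The double-negative mean ranked at the 6.4th percentile of all genes, against the 36.7th percentile for the SSEA1+ mean. Fut4, the other fucosyltransferase gene of this epitope, stood at 5.22 and 5.29 in double-negative cells and 5.16 and 5.48 in SSEA1+ cells, so its arrays overlapped.

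Thy1, the surface glycoprotein of fibroblasts that both gates excluded, stood at 10.46 and 9.61 in double-negative cells and 9.57 and 9.45 in SSEA1+ cells. The double-negative M2 array was high and the M3 array close to the SSEA1+ arrays. The difference of 0.53 did not pass (SE 0.26, 95% confidence interval −0.04 to 1.09, limma adjusted p = 0.386). Thy1+ cells of the same day stood at 11.95 and 11.49, above both groups.

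The cassette genes gave no call, and their probe sets may read cassette transcripts as well as the endogenous genes. Klf4, a Krüppel-type factor, stood at 10.80 and 10.65 in double-negative cells and 10.01 and 10.00 in SSEA1+ cells, without overlap. Its difference of 0.72 had a limma adjusted p of 0.0363 and stayed under 2-fold. Differences were 0.30 for Pou5f1 (SE 0.21), 0.21 for Sox2 (SE 0.43) and −0.16 for Myc (SE 0.20), and these did not pass.

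In all, 125 of 11807 genes passed, 1.06% of those tested, 38 higher in double-negative cells (0.322%) and 87 lower (0.737%). At an unadjusted p under 0.05, 914 genes were higher (7.74%) and 829 lower (7.02%). Each of the 125 called genes had groups with no overlap, as did 54% of all genes. With no minimum fold 188 genes were higher (1.59%) and 238 lower (2.02%). The count was 41 when the double-negative M2 array was omitted, 64 without SSEA1+ M2, 82 without SSEA1+ M3 and 149 without double-negative M3. The median difference of all genes was 0.0253. Called differences were moderate, with a median of 1.13 among the higher genes and −1.16 among the lower. The 15 called genes with the largest rise and the 15 with the largest fall are described first. Of these 30, 10 kept their call in each alternative setting that tested them, namely Aox3, Fmo1, Tril, Pdgfrb, Gpx3, Fut9, Nr0b1, Pkp1, Rad51ap1 and Bex2. Fut9 was too dim to be tested in the setting that omits the dimmest 25% of genes. Pear1 and Kcnk1 lost it only with the mean of all their probe sets, and the others lost it when an array was omitted.

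Aox3, an aldehyde oxidase gene, gave the largest rise. Its signal was 8.89 and 8.51 in double-negative cells and 6.84 and 6.61 in SSEA1+ cells, a difference of 1.98 (SE 0.27, limma adjusted p = 0.00181), or 3.94-fold. Its relative Aox1 stood at 9.60 and 9.53 in double-negative cells and 8.42 and 8.40 in SSEA1+ cells, and also passed, with a difference of 1.15. Aox1 was not among the 15 largest and is named here after its values were seen, because it is a paralog of Aox3. Fmo1, a flavin-containing monooxygenase gene, stood at 8.93 and 8.64 in double-negative cells and 7.46 and 7.03 in SSEA1+ cells (difference 1.54, SE 0.20, limma adjusted p = 0.00163). Gpx3, which encodes a secreted glutathione peroxidase, was the brightest of the leading genes, at 11.14 and 11.10 in double-negative cells and 9.93 and 9.91 in SSEA1+ cells (difference 1.20). For each of these genes the arrays of a group lay closer together than the groups did.

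Igfbp4, an extracellular binding protein gene, stood at 8.77 and 8.14 in double-negative cells and 7.10 and 6.90 in SSEA1+ cells, a difference of 1.46 (SE 0.36, limma adjusted p = 0.0401). Igfbp5 was dimmer, at 6.56 and 5.90 in double-negative cells and 5.10 and 4.68 in SSEA1+ cells, with a difference of 1.34 and an adjusted p of 0.0422 in limma. Both had a wide spread in double-negative cells, with M2 above M3, and both lost their calls when any 1 of the 4 arrays was omitted. The growth factor gene Igf1 (difference 1.01, SE 0.20) and Pappa, the gene of a protease that cleaves the binding protein IGFBP4 (difference 1.07, SE 0.18), also passed and were picked out after their values were seen. Igfbpl1, a gene named for its likeness to these binding proteins and also picked out afterwards, went the other way, at 5.20 and 5.62 in double-negative cells and 6.78 and 6.70 in SSEA1+ cells (difference −1.32, limma adjusted p = 0.0006). Igf1 stood at 8.68 and 8.57 in double-negative cells and 7.51 and 7.72 in SSEA1+ cells.

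Surface and receptor genes followed. Pdgfrb, the receptor through which platelet-derived growth factor acts on mesenchymal cells, stood at 9.80 and 9.59 in double-negative cells and 8.31 and 8.59 in SSEA1+ cells (difference 1.24, SE 0.18, limma adjusted p = 0.0019). Tril, a partner of Toll-like receptor 4, stood at 10.49 and 10.40 in double-negative cells and 9.14 and 9.10 in SSEA1+ cells. Pear1, a receptor gene with EGF-like repeats, stood at 9.74 and 9.61 in double-negative cells and 8.47 and 8.35 in SSEA1+ cells. Replicates of both lay close together. The differences of Tril and Pear1, 1.32 and 1.27, had limma adjusted p-values of 0.000379 and 0.000338. Vsir, which encodes the immune checkpoint protein VISTA, was higher by 1.52 (SE 0.25, adjusted p = 0.00422 in limma).

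The other leading rises were spread over cell functions. Fhod3 and Mical2, both regulators of actin filaments, were higher by 1.26 and 1.21. Smoc2, a matricellular protein gene, stood at 6.76 and 6.14 in double-negative cells and 5.19 and 5.34 in SSEA1+ cells (difference 1.19). Sostdc1 encodes a secreted antagonist of BMP and Wnt signals, and it stood at 9.63 and 9.28 in double-negative cells and 8.09 and 8.50 in SSEA1+ cells (difference 1.16, SE 0.29, limma adjusted p = 0.0401). The RNA-binding protein gene Bicc1 was higher by 1.26 and the nuclear receptor gene Rora by 1.16.

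**Figure D1:**
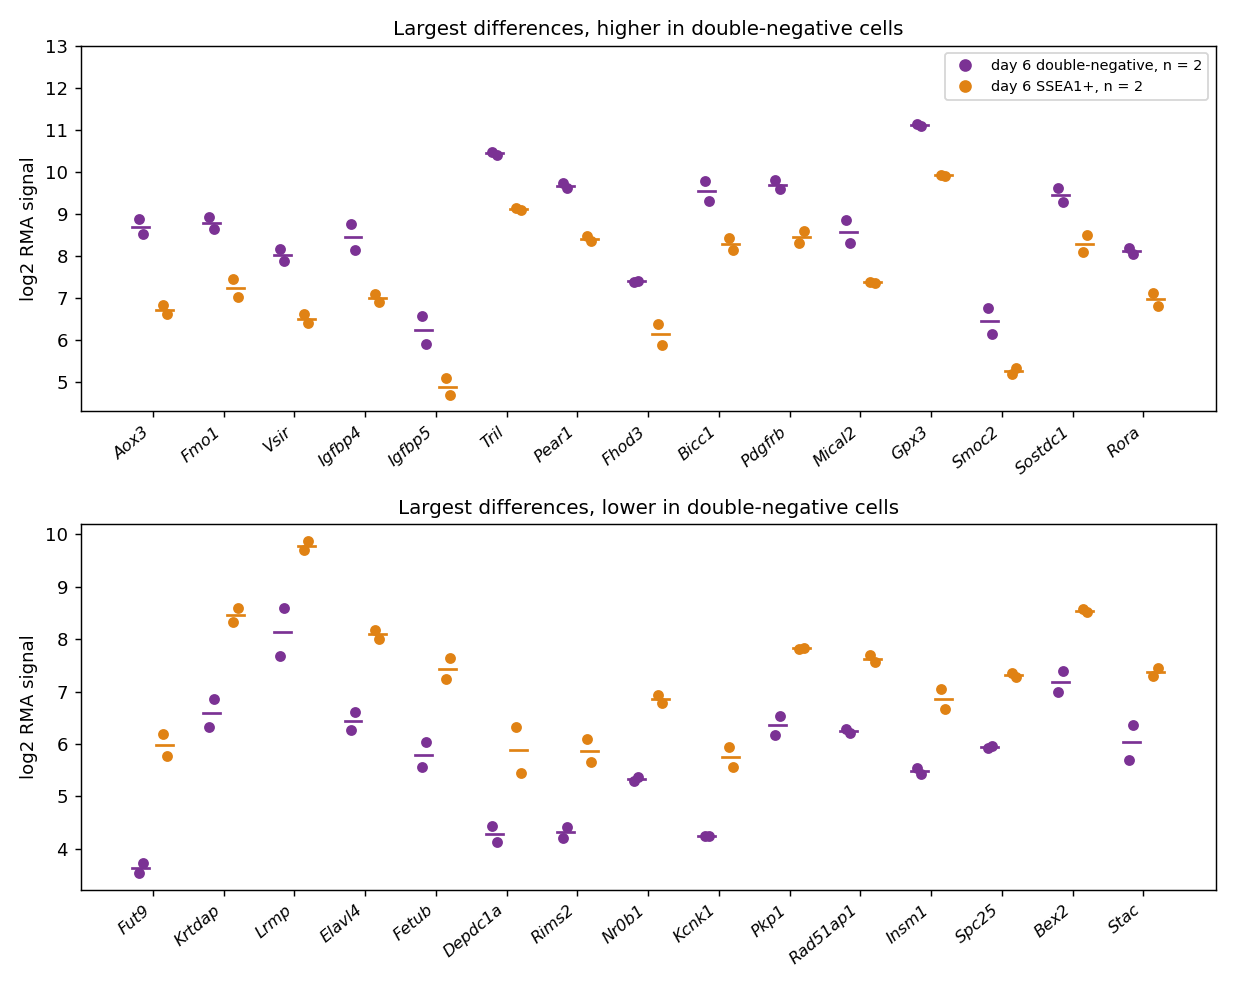
Log2 RMA signal (vertical axis) on each day 6 array for the 15 largest rises and 15 largest falls, with double-negative points left of SSEA1+ points, n = 2 arrays each, and a bar at each group's mean. Genes were chosen among calls whose groups do not overlap, and the largest differences are those of Aox3 (1.98) and Fut9 (−2.36).

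Among the genes that fell, several are known from neurons and endocrine cells. Elavl4, a neuronal RNA-binding protein gene, stood at 6.28 and 6.61 in double-negative cells and 8.18 and 8.01 in SSEA1+ cells (difference −1.65, SE 0.29, limma adjusted p = 0.00653). Rims2, a component of the presynaptic release site, was dim in double-negative cells at 4.21 and 4.42, and stood at 6.09 and 5.65 in SSEA1+ cells (difference −1.55). Insm1, the gene of a zinc finger factor of neuroendocrine cells, stood at 5.53 and 5.43 in double-negative cells and 7.05 and 6.67 in SSEA1+ cells. Its difference was −1.38 (SE 0.23, limma adjusted p = 0.00498). None of these genes was on the list of 19 neural markers, of which 0 passed in limma (median difference 0.085, 1 higher and 3 lower at an unadjusted p under 0.05).

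Krtdap, a gene of differentiating keratinocytes, fell by 1.86 on the log2 scale (SE 0.31, limma adjusted p = 0.00498). It stood at 6.33 and 6.86 in double-negative cells and 8.33 and 8.60 in SSEA1+ cells. It was the only member of 23 measured epidermal genes to pass, against 1.06% of all genes, and the list's median was 0.073. Lrmp, a lymphoid-restricted membrane protein gene, stood at 7.67 and 8.60 in double-negative cells and 9.70 and 9.88 in SSEA1+ cells, a difference of −1.65 with M3 well above M2 in double-negative cells. Fetub, which encodes a secreted protease inhibitor, had the same difference, −1.65 (SE 0.31). Kcnk1, a potassium channel gene, stood at 4.24 and 4.25 in double-negative cells and 5.94 and 5.56 in SSEA1+ cells (difference −1.51, SE 0.17, limma adjusted p = 0.000511). The double-negative signals lay little above the 10th percentile of genes, which was 3.955 on M2 and 3.942 on M3. Bex2, a brain-expressed X-linked gene, had a difference of −1.36, and Stac, an adaptor protein gene, −1.34.

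Genes of cell division were lower in double-negative cells. Of 25 measured genes of the mitotic cell cycle 11 fell and 0 rose, against 0.737% and 0.322% of all genes, and all 25 differences were negative. The list's median was −0.951, its range −1.33 to −0.64, against a median of 0.0253 over all genes. Without the 2-fold minimum 22 of the 25 passed, and with each array omitted in turn 6 to 11 fell. Aurkb, the kinase of the chromosomal passenger complex, stood at 7.14 and 7.25 in double-negative cells and 8.66 and 8.39 in SSEA1+ cells (difference −1.33, SE 0.19, limma adjusted p = 0.00183). Plk1, a kinase that drives entry into and exit from mitosis, stood at 7.18 and 7.04 in double-negative cells and 8.29 and 8.45 in SSEA1+ cells (difference −1.26, SE 0.14, limma adjusted p = 0.000556).

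Other mitotic genes fell by like amounts. The kinetochore gene Cenpf stood at 7.30 and 7.18 in double-negative cells and 8.49 and 8.41 in SSEA1+ cells (−1.21). The spindle checkpoint kinase gene Bub1 stood at 8.28 and 8.40 in double-negative cells and 9.55 and 9.46 in SSEA1+ cells (−1.16). Kif23 (−1.19), a motor of cell separation, the checkpoint kinase genes Ttk (−1.12) and Bub1b (−1.01), the phosphatase gene Cdc25c (−1.11), the kinase genes Aurka (−1.09) and Nek2 (−1.001) and the activator of the anaphase ligase Cdc20 (−1.01) made up the rest. The other probe set of Kif23 gave a difference of −0.125. Aurkb and Plk1 kept their calls in every alternative setting. Mki67, the proliferation marker, had a difference of −0.82 and did not pass (limma adjusted p = 0.18).

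DNA replication genes behaved in the same way. Of 28 measured, 9 fell and 0 rose, against 0.737% and 0.322% of all genes. All 28 differences were negative, the median was −0.903, and 20 passed with no minimum fold. With each array omitted in turn 5 to 10 fell. Cdc6, which loads the replicative helicase onto origins, stood at 5.62 and 5.33 in double-negative cells and 6.94 and 6.67 in SSEA1+ cells (difference −1.33, SE 0.18, limma adjusted p = 0.00181). Mcm10, which helps to start the helicase, stood at 6.88 and 6.81 in double-negative cells and 8.17 and 8.17 in SSEA1+ cells (difference −1.33, SE 0.14, limma adjusted p = 0.000494). The replicates of Mcm10 lay within 0.1 of each other in both groups, and Cdc6 and Mcm10 kept their calls in every alternative setting. Orc1 (−1.30), of the origin recognition complex, Gins1 (−1.29) and Cdc45 (−1.10), of the active helicase, its core genes Mcm5 (−1.08) and Mcm3 (−1.002), and the polymerase genes Pole (−1.20) and Pola1 (−1.04) also fell. Pcna, the sliding clamp gene, had a difference of −0.45 (adjusted p = 0.64 in limma), and Rrm1, of ribonucleotide reductase, −0.17.

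Members of both lists made up 20 of the 87 genes that fell. Further genes of division were called outside the lists and are named after their values were seen. Among the 15 largest falls these were Depdc1a (−1.61), Rad51ap1 (−1.38), which aids recombination repair, and Spc25 (−1.38), of the kinetochore. Others were Chek1 (−1.31), Kif18a (−1.31), Exo1 (−1.30), Mybl2 (−1.11), Brca1 (−1.03) and Gmnn (−1.12), which inhibits a second round of replication. The 4 probe sets of Chek1 gave differences from −1.414 to −0.095, and the 4 of Brca1 from −1.234 to −0.343. Depdc1a had a wide spread, at 4.43 and 4.13 in double-negative cells and 6.33 and 5.44 in SSEA1+ cells. Hells, the helicase gene that works with DNA methylation in dividing cells, was the only one of 7 genes of DNA methylation to pass. Its difference was −1.05 and the list median −0.794, and 1.06% of all genes passed. Hells lost its call without either M2 array or without double-negative M3.

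Promoters of cell cycle genes often carry short shared elements, so the 2 called genes of largest difference with an entry in the promoter table are shown for both lists. Each sequence runs from 250 bases before to 50 bases after the gene's start, from RefSeq on build GRCm38.p6, 5′ to 3′ on the strand of the gene. Capitals mark the motifs searched on both strands, which were the cell cycle homology region (CHR, TTTGAA or TTCGAA), an E2F site (TTTCGCGC, TTTGGCGC or TTTCCCGC) and the CCAAT box (CCAAT). Plk1 lies on the forward strand at chr7:122159185-122159484, with a CCAAT box before and a CHR after the start. Cenpf lies on the reverse strand at chr1:189688037-189688336, with 2 CCAAT boxes and a CHR.
Plk1: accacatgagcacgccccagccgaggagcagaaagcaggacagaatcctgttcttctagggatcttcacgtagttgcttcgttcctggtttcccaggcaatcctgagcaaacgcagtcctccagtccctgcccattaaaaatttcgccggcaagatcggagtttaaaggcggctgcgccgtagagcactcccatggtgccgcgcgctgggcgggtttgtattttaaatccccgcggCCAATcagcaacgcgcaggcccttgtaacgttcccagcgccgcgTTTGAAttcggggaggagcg
Cenpf: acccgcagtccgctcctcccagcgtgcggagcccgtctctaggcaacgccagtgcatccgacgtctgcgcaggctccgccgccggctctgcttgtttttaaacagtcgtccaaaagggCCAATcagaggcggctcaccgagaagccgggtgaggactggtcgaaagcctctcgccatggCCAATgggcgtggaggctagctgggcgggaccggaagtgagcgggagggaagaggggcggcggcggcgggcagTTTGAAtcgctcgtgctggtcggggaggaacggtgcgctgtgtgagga
Cdc6 lies on the forward strand at chr11:98907901-98908200, with an E2F site read on the opposite strand. Mcm10 lies on the reverse strand at chr2:5012742-5013041, with 3 CCAAT boxes.
Cdc6: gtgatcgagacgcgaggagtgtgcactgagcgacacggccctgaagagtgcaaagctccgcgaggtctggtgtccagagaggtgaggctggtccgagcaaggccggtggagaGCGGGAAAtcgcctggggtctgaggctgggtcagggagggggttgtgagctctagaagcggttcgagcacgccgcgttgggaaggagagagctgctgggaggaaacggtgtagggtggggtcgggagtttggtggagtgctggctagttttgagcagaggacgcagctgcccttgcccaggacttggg
Mcm10: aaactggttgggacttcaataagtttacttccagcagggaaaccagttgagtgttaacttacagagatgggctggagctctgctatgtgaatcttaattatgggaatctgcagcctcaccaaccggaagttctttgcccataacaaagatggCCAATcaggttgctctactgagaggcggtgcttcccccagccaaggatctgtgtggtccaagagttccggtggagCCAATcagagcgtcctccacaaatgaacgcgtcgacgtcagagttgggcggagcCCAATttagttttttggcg

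The motifs were counted over all genes with a promoter in the table. A CHR was present in 15 of 19 mitotic genes (78.9%) and 5 of 24 replication genes (20.8%), against 17.4% of 9430 genes on the arrays and 19.2% of all 32851 promoter windows. An E2F site was present in 1 of 19 mitotic genes (5.3%) and 10 of 24 replication genes (41.7%), against 3.5% of genes and 1.8% of windows. CCAAT was found in 17 of 19 (89.5%) and 16 of 24 (66.7%), against 42.7% of genes and 37.4% of windows. Among called genes, 68 of the 87 that fell had a promoter entry, and 29 of them held a CHR (42.6%) and 8 an E2F site (11.8%). Of the 28 higher genes with an entry, 3 held a CHR (10.7%) and 1 an E2F site (3.6%). Genes with several start sites had several windows, a gene counted once if any window held the motif, and a match describes letters, not binding.

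Genes of growth and energy moved less. All 17 ribosome biogenesis genes had negative differences (median −0.436) and 0 passed at 2-fold, with Nop56, a nucleolar protein gene, at −0.55 (limma adjusted p = 0.018) the largest. At an unadjusted p under 0.05, 9 of them were lower. All 30 genes of oxidative phosphorylation were negative too, with a median of −0.180 and 0 calls by limma (2 at an unadjusted p under 0.05). The 19 glycolysis genes had a median of −0.080 and 0 calls (1 higher at an unadjusted p under 0.05).

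Genes of the fibroblast matrix leaned higher in double-negative cells, by less than 2-fold. Of 28 measured 0 passed in limma, 20 were higher at an unadjusted p under 0.05 (7.74% of all genes), and 27 differences were positive, with a median of 0.684. Quantile normalization gave 2 matrix calls and the mean of all probe sets 1. With no minimum fold 3 passed. These were Aspn, a small proteoglycan gene, at 7.72 and 7.56 in double-negative cells and 6.79 and 6.51 in SSEA1+ cells (difference 0.99, limma adjusted p = 0.028), the elastin gene Eln (0.99) and Pcolce (0.68), an enhancer of collagen processing. Col1a1, of type I collagen, stood at 11.94 and 11.68 in double-negative cells and 11.10 and 11.06 in SSEA1+ cells, without overlap. Its difference of 0.73 did not pass (SE 0.29, adjusted p = 0.25 in limma). Postn, a matrix gene of activated fibroblasts, stood at 9.24 and 8.60 in double-negative cells and 8.30 and 7.81 in SSEA1+ cells (difference 0.87, limma adjusted p = 0.402).

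Mesenchymal transcription factor genes shared this direction. All 15 differences were positive (median 0.548), and 1 passed, against 0.322% of all genes called higher. Prrx2, a paired-related homeobox gene of limb and facial mesenchyme, stood at 7.94 and 7.24 in double-negative cells and 6.38 and 6.54 in SSEA1+ cells (difference 1.13, SE 0.23, limma adjusted p = 0.0144). The calls of Prrx2, and of the protease gene Mmp2 below, were lost when double-negative M2 or either SSEA1+ array was omitted. Runx1 was higher by 0.86 (adjusted p = 0.041 in limma) and stayed under 2-fold. Other regulators of the mesenchymal state, Twist1 (0.67), Snai1 (0.83), Snai2 (0.64), Zeb1 (0.33) and Zeb2 (0.50), did not pass.

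Remodelling and signalling genes gave few calls. Of 18 matrix proteases and inhibitors 1 rose, against 0.322% of all genes. This was the gelatinase gene Mmp2, at 9.34 and 9.06 in double-negative cells and 8.10 and 8.18 in SSEA1+ cells (difference 1.06, SE 0.21, limma adjusted p = 0.0134). Its membrane-bound activator Mmp14 was higher by 0.92 (limma adjusted p = 0.025). Of 19 genes of the TGF-beta pathway and its targets 0 passed in limma, with 9 higher at an unadjusted p under 0.05, a median of 0.563 and the target gene Tgfbi at 0.86 (adjusted p = 0.028). The 15 contractile genes (median 0.241), 21 immediate early genes (0.280), 22 inflammatory genes (0.317) and 17 interferon genes (0.187) gave 0 calls, with 2, 2, 3 and 1 higher at an unadjusted p under 0.05. The 20 genes of p53 and cell cycle inhibition (median 0.168) and 15 imprinted genes (0.114) gave 0 calls as well, with 4 and 1 higher and 1 and 0 lower at an unadjusted p under 0.05. The chemokine gene Cxcl12 was higher by 0.91 (limma adjusted p = 0.011), and the cell cycle inhibitor gene Cdkn1c, an imprinted gene, by 0.88 (adjusted p = 0.017).

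Among 17 surface proteins of mesenchyme and of early intermediates, Pdgfrb rose and Kit fell, against 0.322% and 0.737% of all genes. Kit, the receptor of stem cell factor, stood at 3.80 and 3.41 in double-negative cells and 5.05 and 4.50 in SSEA1+ cells (difference −1.17, SE 0.21, limma adjusted p = 0.00621). The double-negative signals lay below the 10th percentile of genes on their arrays, and the call was lost without SSEA1+ M2 or double-negative M3. Icam1, an adhesion receptor, was higher by 0.80 (limma adjusted p = 0.00471) and under 2-fold. Prom1 (−1.01, adjusted p = 0.103) and Cd24a (−0.82, adjusted p = 0.050), surface genes of epithelial progenitors, did not pass in limma.

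**Figure D2:**
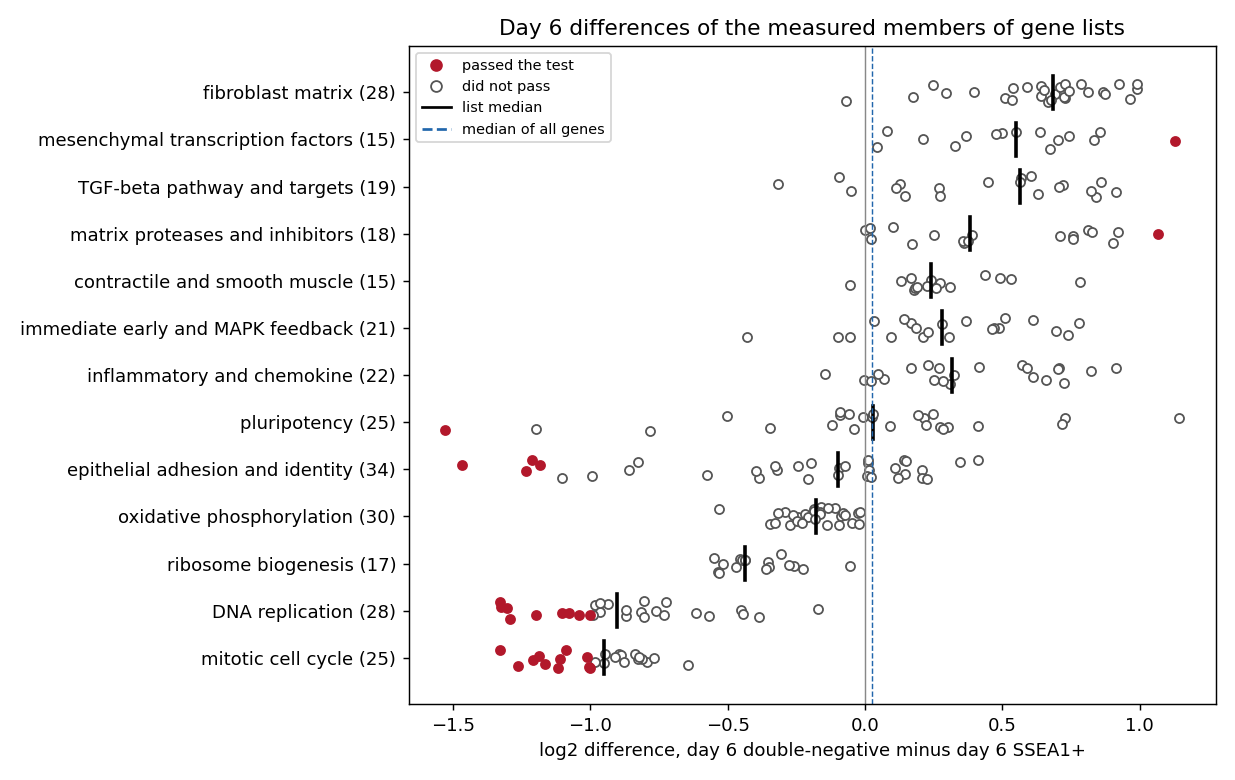
Log2 difference, double-negative minus SSEA1+ on day 6 (horizontal axis), of every measured member of 13 gene lists, with list sizes in brackets. Filled points passed the test, black bars are list medians and the dashed line is the median of all genes (0.0253). The 25 mitotic and 28 replication genes all lie left of 0, and 27 of 28 matrix genes lie right of it.

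Of 34 measured epithelial genes 4 fell and 0 rose, against 0.737% and 0.322% of all genes. With no minimum fold 6 were lower and 0 higher (2.02% and 1.59% of all genes), and at an unadjusted p under 0.05, 9 were lower and 1 higher (7.02% and 7.74%). The list's median was −0.097. Pkp1, a plaque protein of desmosomes, stood at 6.18 and 6.54 in double-negative cells and 7.81 and 7.84 in SSEA1+ cells (difference −1.47, SE 0.16, limma adjusted p = 0.000494). Spint1, an inhibitor of epithelial surface proteases, stood at 7.66 and 8.18 in double-negative cells and 8.89 and 9.36 in SSEA1+ cells (difference −1.21, limma adjusted p = 0.00422). Epcam, the epithelial adhesion molecule, stood at 6.15 and 6.27 in double-negative cells and 7.29 and 7.48 in SSEA1+ cells (difference −1.18, SE 0.25, adjusted p = 0.0176 in limma). For these 3 the gap between the groups exceeded the spread within them, although Spint1 lost its call with double-negative M2 or SSEA1+ M3 omitted, and Epcam lost its call with any 1 of the 4 arrays omitted (adjusted p up to 0.19 in limma). With each array omitted in turn 1 to 3 epithelial genes fell.

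The desmosomal linker gene Dsp was the fourth, at −1.24 (limma adjusted p = 0.0464), but its 3 probe sets gave differences between −1.24 and 0.13, so they disagreed. Cdh1, the E-cadherin gene, stood at 7.10 and 7.50 in double-negative cells and 8.32 and 8.26 in SSEA1+ cells. Its difference of −0.99 passed the adjusted p (0.0378 in limma) and stood just under 2-fold. In day 6 Thy1+ cells Cdh1 was 5.11 and 4.98, below both. Among keratin and claudin genes of simple epithelia Krt18 had a difference of 0.15, Cldn7 −0.10 and Krt8 −1.10, none of which passed (Krt8 adjusted p = 0.322 in limma).

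Of 25 measured pluripotency genes 1 fell and 0 rose, against 0.737% and 0.322% of all genes. Their differences ran from −1.53 to 1.14 with a median of 0.027, 14 positive and 11 negative. At an unadjusted p under 0.05, 2 were higher and 4 lower (7.74% and 7.02% of all genes). Nr0b1, a nuclear receptor gene of the pluripotency network, stood at 5.29 and 5.36 in double-negative cells and 6.93 and 6.77 in SSEA1+ cells (difference −1.53, SE 0.14, limma adjusted p = 0.000338). Nanog, the homeobox regulator, stood at 4.41 and 5.69 in double-negative cells and 6.43 and 6.06 in SSEA1+ cells. Its groups did not overlap, yet its difference of −1.20 did not pass, with an SE of 0.40 and a limma adjusted p of 0.144. It passed without double-negative M3 (−1.83, adjusted p = 0.041 in limma), and its difference was −0.56 without double-negative M2. Tbx3 was higher by 0.73 (limma adjusted p = 0.015), under 2-fold.

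The double-negative M3 array stood above M2 in several of these genes. Dppa5a, a late marker of pluripotent cells, stood at 5.62 and 7.42 in double-negative cells and 5.46 and 5.29 in SSEA1+ cells, a difference of 1.14 (adjusted p = 0.46 in limma) that rested on M3. Sall4 stood at 5.32 and 6.75 in double-negative cells and 6.85 and 6.78 in SSEA1+ cells. Sox2 stood at 3.164 and 3.995 in double-negative cells and 3.354 and 3.376 in SSEA1+ cells. The summed signal of 7 pluripotent cell markers was 30.12 on M2 and 35.89 on M3 in double-negative cells, against 32.55 and 32.09 in SSEA1+ cells. The part of these signals in the other results was not tested. 

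Marker lists of other cell types gave few calls. Trophoblast genes gave 1 call of 15, against 1.06% of all genes called in either direction. It was Tac2, a tachykinin gene, at 9.92 and 10.56 in double-negative cells and 11.21 and 11.36 in SSEA1+ cells (difference −1.05, limma adjusted p = 0.039). This call was lost with the replicate block and without double-negative M2 or either SSEA1+ array. The factor genes Tfap2c (−0.94) and Tfap2a (−0.76), expressed in trophoblast and ectoderm, had adjusted p-values of 0.032 and 0.041 in limma and stayed under 2-fold. Endoderm (15), endothelial (14), macrophage (20), erythroid (8) and skeletal muscle (21) lists had 0 calls in limma, with medians of 0.168, 0.074, 0.067, 0.033 and 0.124, and 5, 3, 2, 1 and 4 higher at an unadjusted p under 0.05. The pan-leukocyte gene Ptprc stood at 3.14 and 2.99 in double-negative cells and 2.92 and 3.04 in SSEA1+ cells, at the bottom of the scale. Of 5 endothelial markers Tek was bright, at 11.09 and 11.20 in double-negative cells and 11.27 and 11.33 in SSEA1+ cells, while Pecam1, Cdh5, Kdr and Tie1 stood between 3.80 and 4.99. For fibroblasts, 7 of 9 markers were measured, with summed signals of 70.35 and 67.58 in double-negative cells and 64.67 and 63.99 in SSEA1+ cells. For simple epithelium the 6 markers summed to 32.33 and 33.34 in double-negative cells and 35.22 and 37.55 in SSEA1+ cells, so both marker sums separated the groups, and their part in the results was not tested.

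The same fractions were sorted on day 3, on arrays not shared with day 6. There 21 of 11807 genes passed (0.178%), 11 higher (0.0932%) and 10 lower (0.0847%) in double-negative cells, with 567 (4.8%) and 352 (2.98%) at an unadjusted p under 0.05. Omitting any of its 4 arrays left 1 to 5 calls. Of the 38 genes higher on day 6, 36 were positive on day 3 (94.7%, against 47.7% of all genes) with a median of 0.772, and 5 passed, Casp12, D230025D16Rik, Fmo1, Igf1 and Tril. These are 13.2% of the day 6 genes and 45.5% of the day 3 genes. All 87 lower genes were negative on day 3 (52.3% of all genes) with a median of −0.544, and 3 passed, Fut9, Lrmp and Tbx21, which are 3.4% of the day 6 and 30.0% of the day 3 genes. No gene passed in opposite directions on the 2 days. Fut9 stood at 3.61 and 3.66 in double-negative cells and 5.25 and 5.41 in SSEA1+ cells of day 3, a difference of −1.70 (SE 0.23, limma adjusted p = 0.00586). Its enzyme makes the epitope gated on both days, so this shared call is tied to the sort. Tril stood at 8.38 and 8.70 in double-negative cells and 7.14 and 7.23 in SSEA1+ cells of day 3 (difference 1.35). A fit that omitted Thy1+ M2 of day 6, an array of wide spread, gave 45 calls on day 3.

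The difference between the days was tested as an interaction, and 0 genes passed in limma, with 157 higher (1.33%) and 188 lower (1.59%) at an unadjusted p under 0.05. The smallest adjusted p was 0.40, so no gene is shown to differ more on one day than on the other. Kcnk1 came closest, with 4.13 and 3.97 in double-negative cells and 4.28 and 4.13 in SSEA1+ cells of day 3, an interaction of −1.35 (SE 0.23). Pkp1 stood at 5.21 and 5.23 in double-negative cells and 5.47 and 5.41 in SSEA1+ cells of day 3 (interaction −1.25, SE 0.22). For Nr0b1 the interaction was −0.98 (adjusted p = 0.74 in limma), for Krtdap −1.75 and for Aox3 1.21. Mitotic genes had a median difference of −0.351 on day 3, and replication genes −0.432, with 10 of 25 and 16 of 28 lower at an unadjusted p under 0.05. The interaction of mitotic genes had a median of −0.642, with 17 of 25 lower at an unadjusted p under 0.05 and 0 called, and that of replication genes a median of −0.476, with 10 of 28. Matrix genes had a day 3 median of 0.605.

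**Figure D3:**
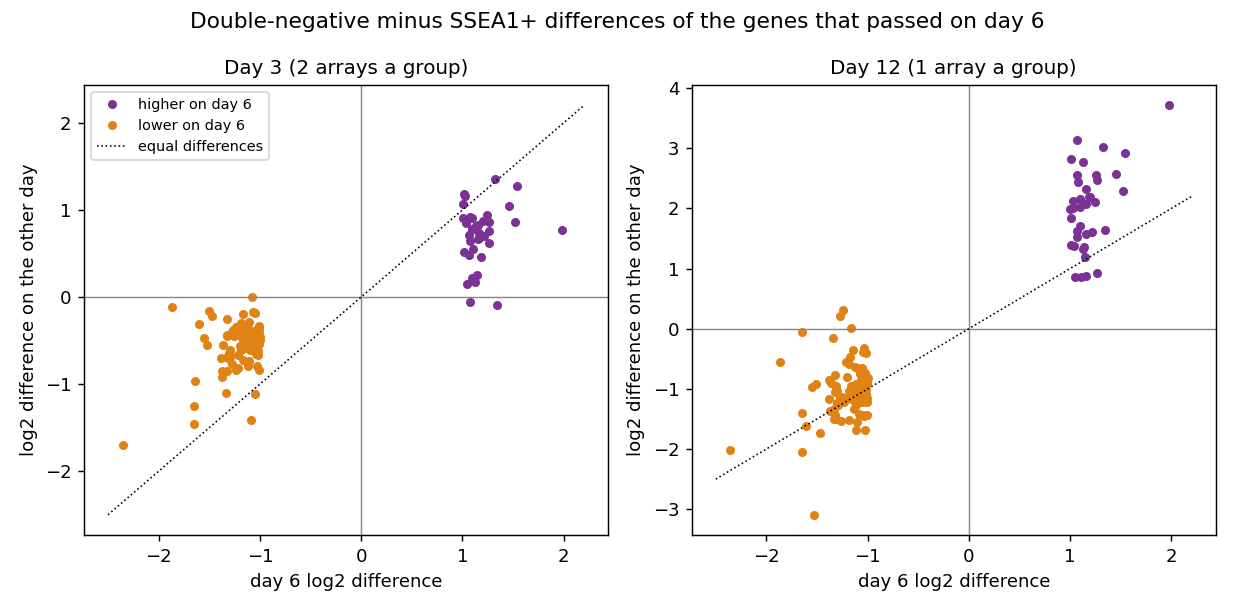
Log2 difference, double-negative minus SSEA1+, on day 3 (left, 2 arrays a group) and day 12 (right, 1 array a group) against the day 6 difference, for the 38 higher and 87 lower genes of day 6, with a dotted line at equal values. On day 12 all 38 higher genes lie above 0 and 84 of 87 lower genes lie below it.

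Days 9 and 12 had 1 array of each fraction, so their differences have no replicate check. All 38 higher genes were positive on day 9 (40.9% of all genes) and on day 12 (44.0%), and 25 and 34 of them differed by at least 2-fold. Of the 87 lower genes 84 were negative on both days (59.1% and 56.0% of all genes), and 17 and 50 differed by at least 2-fold. Aox3 stood at 7.996 in double-negative cells and 5.68 in SSEA1+ cells of day 9, and at 8.63 and 4.92 in these fractions of day 12. Nr0b1 stood at 6.29 in double-negative cells and 9.17 in SSEA1+ cells of day 9, and at 6.65 and 9.75 in these fractions of day 12. Both genes were further apart on days 9 and 12 than on day 6. The median of the 87 lower genes was −0.647 on day 9 and −1.092 on day 12, against −1.164 on day 6. For the 38 higher genes it was 1.157 and 2.048, against 1.131 on day 6. Both sets were chosen by their day 6 difference, which had to be at least 2-fold. Their medians therefore cannot show whether differences grew or shrank between days. The list medians on days 9 and 12 were −0.602 and −1.029 for mitotic genes, −0.566 and −0.874 for replication genes, and 0.823 and 1.880 for matrix genes.

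The called genes were also set beside the start and the end of the course. Of the 38 higher genes 34 were higher in fibroblasts than in iPS cells (49.5% of all genes), 32 by at least 2-fold. Of the 87 lower genes 83 were lower in fibroblasts (50.5% of all genes), 77 by at least 2-fold. Pdgfrb stood at 11.30 and 11.29 in fibroblasts and between 7.04 and 7.61 in iPS cells, so double-negative cells, at 9.80 and 9.59, lay between them. Fmo1 did not lie between, at 5.26 and 5.46 in fibroblasts and 3.08 to 3.34 in iPS cells, below the 8.93 and 8.64 of double-negative cells. Aox3 was likewise dim in fibroblasts, at 5.00 and 4.59. Sostdc1 also lay above both ends, with means of 9.453 in double-negative cells, 4.975 in fibroblasts and 5.046 in iPS cells. In the same order, so did Fhod3 (7.393, 5.084 and 6.596), Tril (10.442, 9.694 and 4.342) and Rora (8.125, 7.649 and 6.141). Means of Igfbp4, Igfbp5, Pear1, Bicc1, Mical2, Gpx3 and Smoc2 lay between the ends. Pkp1 was dim at both ends, at 4.21 and 4.07 in fibroblasts and 4.46 to 4.74 in iPS cells, against 7.81 and 7.84 in day 6 SSEA1+ cells. Krtdap showed the same shape, with 4.95 and 4.49 in fibroblasts, 5.41 to 5.99 in iPS cells, and 11.24 in double-negative and 11.80 in SSEA1+ cells of day 12.

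**Figure D4:**
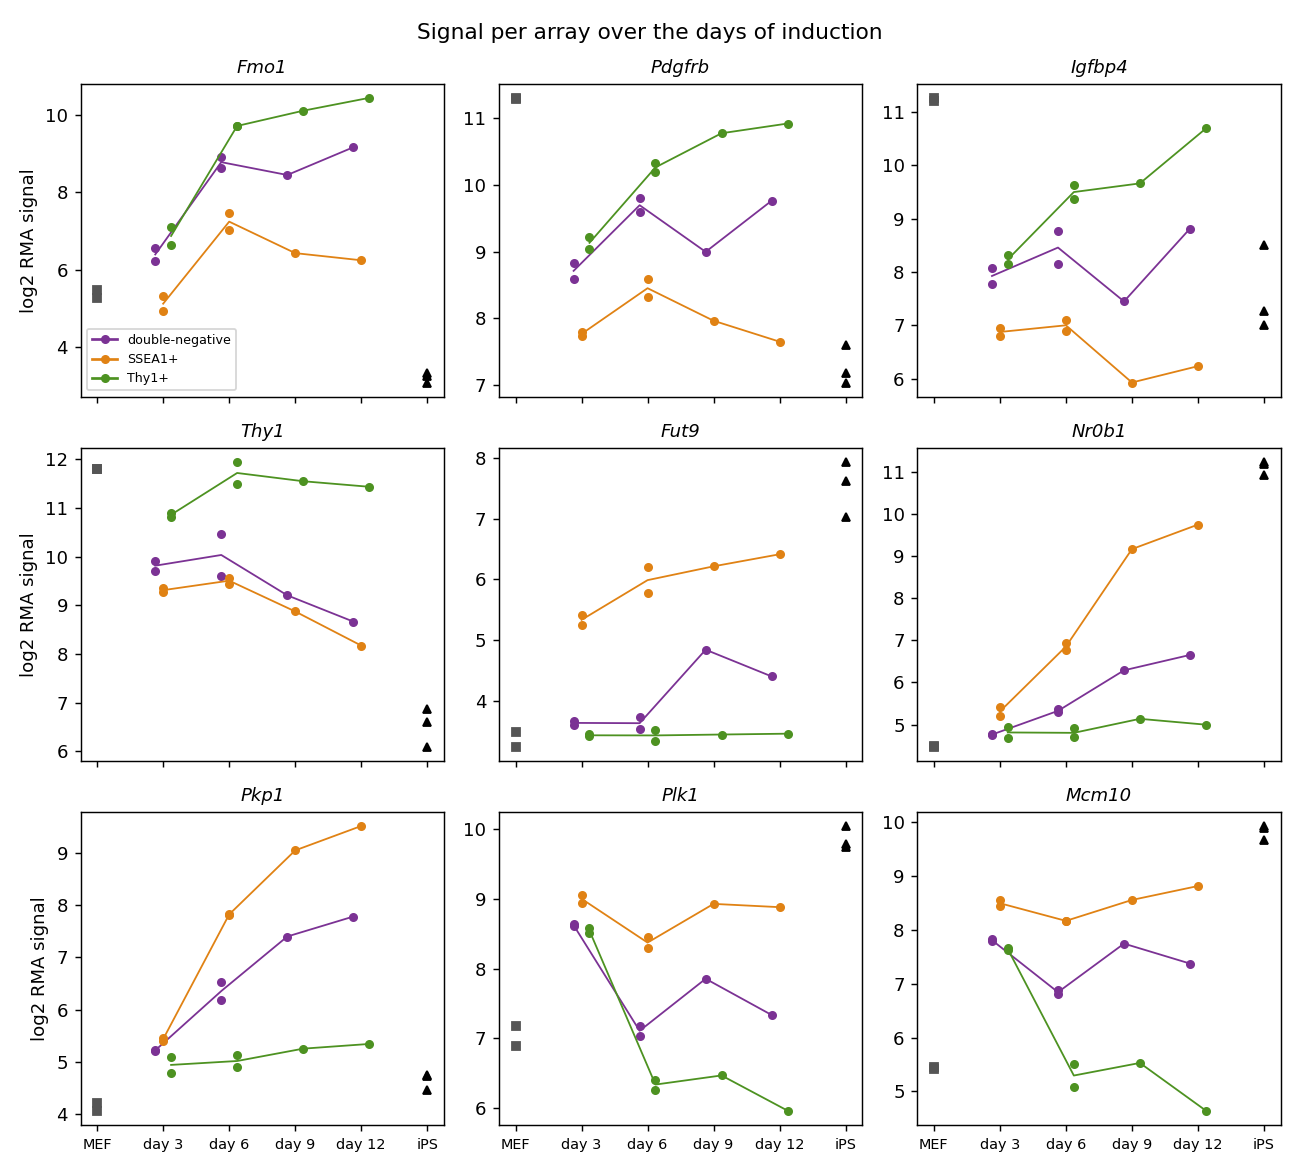
Log2 RMA signal (vertical axes) of 9 genes on every array of MEFs (squares), of the double-negative, SSEA1+ and Thy1+ fractions of days 3 to 12 (points, lines through group means) and of iPS cells (triangles). Days 3 and 6 have 2 arrays a fraction, and days 9 and 12 have 1. For Fmo1, all 3 fractions of day 6 exceed the MEF level of 5.26 and 5.46.

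Another array design split day 6 SSEA1+ cells by EpCAM, with 2 arrays of SSEA1+EpCAM− and 2 of SSEA1+EpCAM+ cells, and its levels are not comparable with those above. Of 12394 genes 93 passed (0.75%), 33 higher (0.266%) and 60 lower (0.484%) in EpCAM− cells, and 0 to 6 passed with each array omitted in turn. With no minimum fold 1.34% were higher and 1.4% lower. Of the 38 genes higher in double-negative cells 33 were positive here (44.4% of all genes) and 2 passed. Of the 87 lower genes 83 were negative (55.5%) and 8 passed. Some leading higher genes were dim on the EpCAM arrays, so a difference may have been missed. These included Tril (4.37 to 4.56), Pdgfrb (4.10 to 4.46), Fmo1 (3.997 to 4.34) and Smoc2 (3.43 to 3.71), while Bicc1 (6.53 to 7.65) was brighter. Nr0b1 stood at 4.77 and 4.63 in EpCAM− cells and 6.75 and 7.31 in EpCAM+ cells, a difference of −2.33 (SE 0.19, limma adjusted p = 0.00643). Krtdap stood at 5.14 and 5.29 in EpCAM− cells and 6.96 and 6.62 in EpCAM+ cells (difference −1.57, limma adjusted p = 0.00772). Epcam itself differed by −2.94 (limma adjusted p = 0.00116), which the gate fixes. Sostdc1 stood at 5.85 and 5.85 in EpCAM− cells and 4.42 and 4.15 in EpCAM+ cells (difference 1.56, limma adjusted p = 0.00486). Kcnk1 (−0.82), Fetub (−0.74) and Bicc1 (0.97) had adjusted p-values of 0.0214, 0.0264 and 0.0182 in limma and stayed under 2-fold.

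Among the gene lists, 8 of 27 pluripotency genes and 10 of 35 epithelial genes passed as lower in EpCAM− cells, against 0.484% of all genes. Of 32 matrix genes 7 passed as higher, against 0.266% of all genes. The matrix genes Col1a1 (4.13 to 4.41) and Postn (3.50 to 3.73) were dim on these arrays and did not pass. Mitotic genes gave 0 calls of 25 in limma, with a median of −0.215 and 11 lower and 1 higher at an unadjusted p under 0.05. Replication genes gave 0 of 28, with a median of −0.286 and 19 lower at an unadjusted p under 0.05. Of all genes 11.5% were lower and 8.32% higher in EpCAM− cells at that threshold. Whether this pattern differs from that of double-negative cells was not tested, since the array designs differ.

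Thy1+ cells of day 6 give the other neighbour of double-negative cells. The comparison shares the double-negative arrays with the main one, so values are only set side by side. Its Thy1+ M2 array stood apart, with a Gapdh 3′ to 5′ difference of 1.78, against 0.934 on M3, and the spread of that group was 0.464, against 0.149 in double-negative cells. In all 407 of 11807 genes passed (3.45%), 228 higher (1.93%) and 179 lower (1.52%) in double-negative cells. With no minimum fold 4.96% of genes were higher and 4.53% lower. The count was 218 without Thy1+ M2, 1833 without Thy1+ M3, 161 without double-negative M3 and 303 without double-negative M2, and it was 0 when only these 4 arrays were fitted.

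The largest rises over Thy1+ cells were those of Mpzl2 (2.88), an epithelial adhesion gene, the brain-expressed X-linked genes Bex4 (2.78) and Bex1 (2.71), the kinetochore motor gene Cenpe (2.53) and the PCNA-binding factor gene Pclaf (2.43). Mpzl2 stood at 6.41 and 7.04 in double-negative cells, 7.81 and 7.55 in SSEA1+ cells and 3.44 and 4.25 in Thy1+ cells. Cenpe stood at 7.44 and 7.37 in double-negative cells, 8.53 and 8.18 in SSEA1+ cells and 4.38 and 5.38 in Thy1+ cells. The largest falls were those of Tgfbr3 (−2.41), a TGF-beta co-receptor, Tlr4 (−2.31) and the chemokine gene Ccl8 (−2.30). The vascular receptor genes Calcrl (−2.03) and Flt1 (−1.98) came next. Probe sets of Calcrl and of Flt1 disagreed in sign in the contrast with SSEA1+ cells, and were not compared for the contrast with Thy1+ cells. Tlr4 stood at 5.41 and 5.15 in double-negative cells and 8.17 and 6.99 in Thy1+ cells. Tgfbr3 rested on M2, with 5.64 and 5.39 in double-negative cells and 9.72 and 6.13 in Thy1+ cells. The Thy1+ arrays lay far apart for other named genes too. Their SD was 1.931 for Ccl8, 1.828 for Flt1, 1.578 for Bex1, 1.18 for Bex4 and 1.103 for Calcrl. It was smaller for Tlr4 (0.836), Cenpe (0.704), Pclaf (0.701) and Mpzl2 (0.574).

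Some leading genes had 3 levels on day 6. Fmo1 stood at 8.93 and 8.64 in double-negative cells and at 9.73 and 9.72 in Thy1+ cells, with SSEA1+ cells at 7.46 and 7.03. Rad51ap1 stood at 6.28 and 6.21 in double-negative cells and at 4.88 and 4.67 in Thy1+ cells, with SSEA1+ cells at 7.69 and 7.56. Neither gene had overlapping arrays between any 2 fractions. Fut9 did not have this form, since its 3.33 and 3.52 in Thy1+ cells lay beside the 3.54 and 3.72 of double-negative cells. Kcnk1 was alike, at 4.13 and 4.27 in Thy1+ cells. Aox3 stood at 8.03 and 8.88 in Thy1+ cells, overlapping the 8.89 and 8.51 of double-negative cells. Of 25 mitotic genes 18 passed as higher in double-negative than in Thy1+ cells, and all 25 differences were positive (median 1.381). Of 28 replication genes 15 passed as higher and 26 were positive (median 1.007). Of all genes 1.93% passed as higher. Of 28 matrix genes 9 passed as lower, against 1.52% of all genes, and 25 were negative (median −0.696).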

How the data were processed

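RNA of sorted mouse cells was labelled with biotin and read on 3′ expression microarrays of 2 designs. The deposited values are log2 signals per probe set, made by the authors with RMA, per the submitters' processing notes. The version, and which arrays went into each RMA run, is not given in the sources used here. The values were tested as deposited. Of 22716 probe sets on the 24 arrays, 18003 had 1 gene symbol, 287 several and 4426 none (90 of them controls). Of 22690 on the EpCAM arrays, 20393 had 1, 691 several and 1606 none (64 of them controls). Analysis kept those with 1 symbol, none of which needed updating, and each gene took its brightest probe set on average, which left 11807 and 12394 genes. Other probe sets of a named gene could give a smaller day 6 difference, as for Igfbp4 (0.329 to 1.456) and Smoc2 (0.416 to 1.187). The same held for Vsir (0.593 to 1.518), Aqp4 (0.411 to 1.144), Il6ra (0.482 to 1.134) and Nodal (−1.069 to −0.386). Those of Bub1 (−1.181 to −1.164), Elavl4 (−1.652 to −1.45) and Sostdc1 (1.101 to 1.161) lay close together. No 2 arrays were identical. Promoter sequences are RefSeq's, on GRCm38.p6.

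Tests used limma 3.58.1 in R 4.3.3, on 15 group means over all 24 arrays (9 residual degrees of freedom), and on the 4 EpCAM arrays alone (2), with Benjamini-Hochberg adjustment over all genes. Days 9 and 12 were not tested. Named genes are the 15 largest called rises and 15 largest called falls without overlap between groups, the 5 largest of each against Thy1+ cells, the 10 largest called interactions of each sign (there were none) and any list member, and others are said to be chosen after their values were seen. The fractions, gene lists, tests and alternatives were chosen with earlier results of these data known. Replicate names correlated weakly between double-negative and SSEA1+ arrays (r = 0.202 of M2 minus M3 across genes) and not between most other groups, so they were not taken as pairs. Simulated data had 100 genes changed by log2 1.5 and 100 by log2 2. Of those changed by 1.5, the day 6 contrast recovered 92%, the day 3 contrast 95% and the interaction 75%. The contrast with Thy1+ cells recovered 91% and the EpCAM contrast 89%, and none went in the wrong direction. Calls among unchanged genes were 0, 1, 11, 5 and 1 in the same order. Each simulated gene had the same spread in every group. In the data the spread was 0.464 in day 6 Thy1+ cells and 0.149 in double-negative cells, so the figures for that contrast may not hold. Changes smaller than 1.5, the size of most called genes, were not simulated. Alternatives changed the scaling, fold minimum, probe set rule, dim gene filter, variance prior, replicate block and arrays fitted. Figures used matplotlib 3.10.9, and tables pandas 2.3.3 under Python 3.11.15.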

Additional observations from a re-analysis of the deposited data

Results flagged for a closer look

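Myc, the cassette gene and proliferation factor, was picked out because its arrays lay apart in opposite directions on days 6 and 3. On day 6 it stood at 9.39 and 9.29 in double-negative cells and 9.53 and 9.46 in SSEA1+ cells, a difference of −0.16. On day 3 it stood at 9.77 and 9.55 in double-negative cells and 9.47 and 9.44 in SSEA1+ cells, a difference of 0.20. The difference of the differences was −0.3629 (SE 0.28) and did not pass in limma. Its probe set may read cassette transcripts.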

How the results depend on the processing

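The day 6 contrast gave 125 calls, and between 113 and 149 after median or quantile scaling, without the dimmest 25% of genes, with the mean of all probe sets, with another variance prior, with only the contrast's arrays and with day 6 Thy1+ M2 omitted. It gave 426 with no minimum fold, 121 with the replicate block, and 41 (without double-negative M2) to 149 (without double-negative M3) as each array was left out, 64 without SSEA1+ M2 and 82 without SSEA1+ M3. Day 3 gave 21, with 40 at no minimum fold, 60 with only its arrays, 45 with day 6 Thy1+ M2 omitted, 20 with the replicate block and 1 to 5 as each array was left out. The numbers M2 and M3 were not taken as pairs. The interaction gave 0 in all 17 alternatives, the replicate block included. The contrast with Thy1+ cells gave 407, with 1121 at no minimum fold, 0 with only its arrays, 218 without Thy1+ M2, 416 with the replicate block and 161 to 1833 as each array was left out. The EpCAM contrast gave 93, with 340 at no minimum fold, 96 with the replicate block and 0 to 6 as each array was left out. Of the 30 leading genes 10 kept their call in each alternative that tested them (Fut9 was not tested without the dimmest 25% of genes), and 0 reversed. Nanog, not called, passed without double-negative M3 (−1.83). In 3 cases values reversed sign, none of them called, namely Sox2 on day 6 (−0.20 to 0.63 as each array was left out, lowest without double-negative M3), Fut4 on day 6 (−0.22 to 0.091, highest without SSEA1+ M3) and Igfbp5 on day 3 (−0.36 to 0.16, highest without SSEA1+ M3). The cause was not tested, but arms left with 1 array borrow the spread of the other groups.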

Other observations

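Other genes called on day 6 are described here, chosen after their values were seen. The higher genes included receptors and secreted proteins. Il6ra, the interleukin-6 receptor gene, stood at 8.47 and 8.19 in double-negative cells and 7.13 and 7.26 in SSEA1+ cells (difference 1.13, SE 0.19, limma adjusted p = 0.0050). Nrp1, a co-receptor of semaphorins and VEGF, was higher by 1.13, Vegfd by 1.04 and Wnt16 by 1.11. The acute-phase protein gene Serpina3n was higher by 1.03, and the water channel genes Aqp1 by 1.07 and Aqp4 by 1.14.

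Lower genes included some known from the early embryo. Nodal, a TGF-beta family ligand of the epiblast, stood at 5.81 and 6.12 in double-negative cells and 7.04 and 7.02 in SSEA1+ cells (difference −1.07, SE 0.15, limma adjusted p = 0.0019). Eras, a Ras gene of embryonic stem cells, stood at 4.34 and 4.28 in double-negative cells and 5.34 and 5.34 in SSEA1+ cells (difference −1.03, limma adjusted p = 0.048). The folate receptor gene Folr1 was lower by −1.15 and the transcriptional co-regulator gene Cited1 by −1.04. Tbx21, the T-box factor known for T helper cells, was at 6.64 and 7.27 in double-negative cells and 8.10 and 7.99 in SSEA1+ cells (difference −1.09). Plet1, a surface gene of placental and epithelial progenitors, had a difference of −1.31, but its probe sets lay between −1.31 and 0.16 and disagreed.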
